A study of Danio rerio with 12 samples.

Results

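The genes described here are as3mt (ENSDARG00000027572), gsto1 (ENSDARG00000022183) and gsto2 (ENSDARG00000033285), chosen by their Ensembl IDs as the zebrafish genes for arsenic methylation and for the omega-class glutathione transferases. All 3 were found among the 32105 gene IDs counted in each library, and all 3 were among the 23096 genes with enough reads to be tested. RNA-seq read counts came from whole larvae aged 5 days (119 hours post-fertilization), with 10 larvae pooled for a library. There were 4 groups of 3 libraries: as3mt mutants in 1 mM inorganic arsenic (iAs), as3mt mutants left untreated, wild type in 1 mM iAs, and wild type left untreated. Exposure began at 6 hours post-fertilization, and all larvae were raised at 20 to a well of 10 mL. The mutants were the offspring of an incross of homozygous fish, so both parents lacked an intact copy. Their allele is a CRISPR deletion of 8 bp in exon 3 that brings in a premature stop codon. They were in the ABNYU background and the wild type was TAB14, so the allele and the strain background cannot be told apart in any comparison of genotypes.

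Inorganic arsenic is cleared in vertebrates by alternating reduction and methylation. Arsenite methyltransferase, the product of as3mt, moves methyl groups from S-adenosylmethionine (SAM) onto arsenite, and in mammals the liver is its main site. Omega-class glutathione transferases differ from other glutathione transferases in having a cysteine at the active site. The human enzymes reduce pentavalent arsenicals, including monomethylated arsenic, with glutathione, and they also reduce dehydroascorbate back to ascorbate. In the RefSeq annotation of the GRCz12tu assembly, gsto1 and gsto2 lie next to each other with 0 protein-coding genes between them, and as3mt is on another chromosome.

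Library totals ran from 28909467 to 43759270 counts, and levels are given as CPM, which are counts divided by the TMM-scaled library size. Genes that mark hepatocytes, enterocytes, pronephric tubules, exocrine pancreas and erythrocytes were all detected. The enterocyte list was the exception in having 1 of its 30 genes at 0 counts in all treated mutant libraries. In bulk RNA from whole larvae, fewer cells of a type and less RNA per cell cannot be told apart.

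The transcript of as3mt was lower in mutants than in wild type, and lower with iAs than without it in either genotype. It stood at 3.02, 3.31 and 3.51 CPM in the treated mutant libraries and at 9.21, 9.91 and 9.52 CPM in the untreated mutant. Wild-type libraries held 9.77, 9.73 and 9.93 CPM with iAs, against 14.3, 16.8 and 17.2 CPM without it. Treated mutants were lowest and untreated wild type highest, and the middle groups overlapped. The transcript was still present in the mutant, at 112 to 117 reads in each treated library and 337 to 365 in each untreated one. A count per gene takes in reads on all exons, so these levels do not say whether a working enzyme was made.

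**Figure D1:**
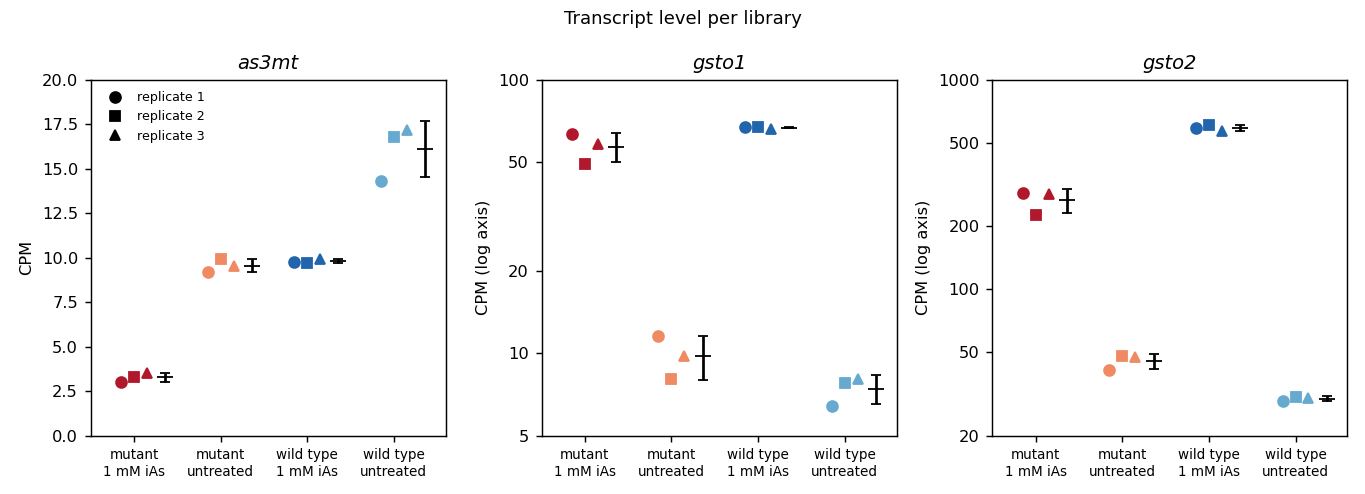
Level of as3mt, gsto1 and gsto2 in each of the 12 libraries, in CPM (linear axis for as3mt, log axes for the gsto genes); symbols are replicates 1 to 3, and the bar beside them is the mean with SD (n = 3). For as3mt the treated mutant lies lowest, at 3.28 CPM, and for both gsto genes the treated groups lie well above the untreated ones.

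Across the 4 groups as3mt averaged 3.28 ± 0.245 CPM in treated mutants, 9.55 ± 0.352 in untreated mutants, 9.81 ± 0.103 in treated wild type and 16.1 ± 1.57 in untreated wild type (SD, n = 3 each). Exposure lowered it 2.91-fold in the mutant (log2 fold change -1.54, SE 0.11, edgeR adjusted p = 1.1e-09). In wild type it fell 1.64-fold with iAs (-0.71, SE 0.10, edgeR adjusted p = 1.2e-05). The mutant was 2.99-fold below wild type under iAs (-1.58, SE 0.11, edgeR adjusted p = 3.2e-09) and 1.68-fold below it without iAs (-0.75, SE 0.10, edgeR adjusted p = 3.9e-05). These falls were larger than the spread between libraries. The order of the groups was untreated wild type, treated wild type, untreated mutant, treated mutant. Its middle neighbours could not be separated, as untreated mutants minus treated wild type gave -0.04 on the log2 scale, with a 95% interval from -0.25 to 0.17.

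The decreases in as3mt from genotype and from iAs did more than multiply. Relative to untreated wild type, the level was 20.4% in treated mutants, 59.4% in untreated mutants and 61.0% in treated wild type. If each single change had acted by its own factor, treated mutants would have held 5.82 CPM, and the measured 3.28 CPM was 0.563 times that. As the test of this difference, the response to iAs was lower in the mutant than in wild type by 0.83 on the log2 scale (interaction -0.83, SE 0.15, edgeR adjusted p = 3.7e-04, n = 3 libraries a group). With 112 to 117 reads, the counting error of as3mt in treated mutants was 9.38%, near the spread of 7.48% between those libraries.

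Most of the liver genes listed fell with iAs too. Of 33 hepatocyte genes, 22 fell and 5 rose in the mutant with a median log2 fold change of -0.82, and 22 fell and 4 rose in wild type with a median of -0.63 (over all tested genes 32.6% fell and 31.1% rose in the mutant, 22.2% fell and 22.6% rose in wild type, and each median was 0.01). The fetuin genes ahsg2 and ahsg1, which encode plasma proteins, were among the largest falls. Levels of ahsg2 were 0.0959 CPM in treated and 12.6 in untreated mutants, and 3.08 in treated and 30.0 in untreated wild type. Among the 5 genes that rose in the mutant was the fibrinogen gene FGG, at 212 CPM in treated and 79.8 in untreated mutants (edgeR adjusted p = 1.4e-09). In wild type FGG was at 109 CPM with iAs and 86.9 without. The summed level of the list was 7269 to 8356 CPM in treated mutants and 10728 to 12033 CPM in untreated mutants. It was 8711 to 9385 CPM in treated wild type, against 10646 to 11657 CPM in untreated wild type. The sums of the untreated groups overlapped. Such a sum is weighted toward its most abundant genes, so it does not measure the amount of liver. Without iAs, 6 of the 33 genes were lower and 1 higher in the mutant, with a median of -0.12 (6.82% lower and 6.64% higher over all tested genes). The part of the liver genes in the as3mt result was not tested.

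The patterns of other tissues differed from tissue to tissue. Over all tested genes, 32.6% fell and 31.1% rose with iAs in the mutant, and 22.2% fell and 22.6% rose in wild type. In untreated mutants 6.82% were lower than in untreated wild type. All 16 exocrine pancreas genes fell with iAs in either genotype, with medians of -1.71 in the mutant and -0.78 in wild type, and 15 of 16 were lower in untreated mutants than in untreated wild type (median -0.51). Summed pancreas levels were 3202 to 4058 CPM in treated mutants, 7815 to 9063 in untreated mutants, 7111 to 8230.4 in treated wild type and 10962 to 13379.8 in untreated wild type. As for as3mt, treated mutants were lowest and untreated wild type highest, and the middle groups overlapped. Of 30 enterocyte genes, 28 fell and 2 rose with iAs in the mutant and 27 fell and 1 rose in wild type, with medians of -2.65 and -1.33. Summed enterocyte levels were 2799.9 to 3083 CPM in treated mutants, 5188 to 5364 in untreated mutants, 3264 to 3412 in treated wild type and 4502 to 5003 in untreated wild type. These sums are weighted toward apoa1a, which rose with iAs in either genotype. It was at 1907 CPM in treated and 981 in untreated mutants, and at 1267 in treated and 613 in untreated wild type. Pronephric tubule genes were split, with 8 of 16 lower and 5 higher in the mutant and 6 lower and 3 higher in wild type, and sums of 1216 to 1267, 1390.2 to 1451, 1079 to 1169 and 1338 to 1421 CPM in the same group order. Of 11 erythrocyte genes, 7 fell with iAs in the mutant, whereas in wild type 7 rose and 1 fell. Their sums were 65.7 to 75.9 CPM in treated mutants, 151 to 176 in untreated mutants, 183 to 206 in treated wild type and 127 to 129.8 in untreated wild type. Like the liver sum, the sums of these lists are weighted toward their most abundant genes, so they do not measure amounts of tissue. The part of these tissues in the as3mt result was not tested.

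Genes beside as3mt were examined because the mutant chromosome also comes from another strain. Of the 10 nearest protein-coding neighbours in the RefSeq order, 5 could be matched to a counted gene and all 5 were tested. Of these, dpcd, a gene of motile cilia, was called between untreated mutants and untreated wild type, at 3.34 and 2.39 CPM (log2 fold change 0.49, edgeR adjusted p = 0.0303). The other matched neighbours, slc2a15b, fgf8b, the DNA polymerase gene poll and the nucleotidase gene nt5c2b, had log2 fold changes from -0.31 to 0.05 there. Under iAs the mutant was higher than wild type at slc2a15b, a sugar transporter family gene (0.32, edgeR adjusted p = 0.0333), and at nt5c2b (0.24, edgeR adjusted p = 0.00355). Over all tested genes, 13.5% were called between untreated genotypes and 50.4% between genotypes under iAs, of which 22.5% of tested genes were higher in the mutant. The 5 neighbours are too few to set against those shares. In the same assembly 2 other annotated loci overlap as3mt, 1 of them an unmatched neighbour, and whether the counting used strand is unknown here, so reads from them cannot be told apart from as3mt reads.

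The omega-class transferases moved the other way, rising with iAs in either genotype. The gsto1 transcript stood at 63.2, 49.4 and 58.0 CPM in treated mutants, against 11.6, 8.04 and 9.75 CPM in untreated mutants. In wild type it stood at 67.2, 67.2 and 66.3 CPM with iAs, against 6.43, 7.79 and 8.07 CPM without it. Every treated library lay above every untreated library of either genotype, while the untreated genotypes overlapped. Replicate 1 held the highest gsto1 level of the untreated mutant and the lowest of the untreated wild type.

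The matched neighbours of the gsto pair, 4 of 10, gave 2 rises with iAs in either genotype, where 31.1% of all tested genes rose in the mutant and 22.6% in wild type, and 4 genes are too few to set against those shares. They were the urokinase-type gene plaua (log2 fold change 1.97 in the mutant and 1.34 in wild type) and the kinase gene chuk (0.34 and 0.37). Levels of plaua were low, at 1.23 CPM in treated and 0.31 in untreated mutants, and 1.27 in treated and 0.499 in untreated wild type. A further neighbour, calhm3, fell in the mutant, to 0.747 CPM in treated from 1.5 in untreated larvae (edgeR adjusted p = 0.00431). Under iAs 1 of the 4, ap3m1, was lower in the mutant than in wild type (-0.44, edgeR adjusted p = 0.00654), where 27.9% of all tested genes were. None of the 4 was called between untreated genotypes, where 13.5% of all tested genes were.

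The gsto2 transcript was at 289, 225 and 285 CPM in treated mutants, against 41.1, 48.0 and 47.3 CPM in untreated mutants. Treated wild-type libraries held 587, 609 and 567 CPM, against 29.2, 30.7 and 30.4 CPM in untreated ones. The groups did not overlap at gsto2, and their order was treated wild type, treated mutant, untreated mutant, untreated wild type.

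In wild type iAs raised gsto2 19.5-fold (log2 fold change 4.29, SE 0.09, edgeR adjusted p = 4.1e-16) and gsto1 9.02-fold (3.17, SE 0.12, edgeR adjusted p = 7.9e-13). In the mutant the rises were 5.85-fold for gsto2 (2.55, SE 0.09, edgeR adjusted p = 1.0e-13) and 5.80-fold for gsto1 (2.53, SE 0.12, edgeR adjusted p = 3.2e-12). Called genes were common here, as 63.6% of all tested genes passed the threshold (edgeR adjusted p below 0.05) with iAs in the mutant and 44.8% in wild type, so that passing it sets the 3 genes little apart. The size of the rise was less common. In wild type gsto2 had the 29th and gsto1 the 83rd largest rise among 23096 tested genes, and in the mutant they ranked 319th and 323rd. The fall of as3mt was moderate by this measure, as 5.55% of tested genes fell further in the mutant and 7.92% in wild type.

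**Figure D2:**
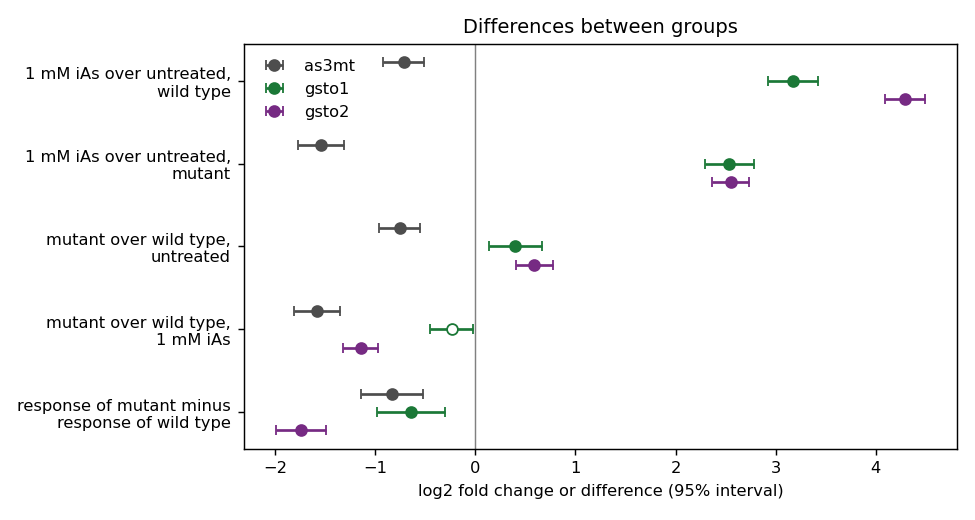
Differences between groups for as3mt, gsto1 and gsto2 on the log2 scale, with points for the edgeR estimates, bars for 95% intervals, and an open point where the adjusted p was not below 0.05. The rises with iAs reach 4.29 for gsto2 in wild type and are near 2.5 for both gsto genes in the mutant.

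Genotype had opposite effects on gsto2 without and with iAs. Without iAs, gsto2 averaged 45.5 ± 3.79 CPM in mutants and 30.1 ± 0.780 CPM in wild type (SD, n = 3 each), a 1.51-fold higher level (log2 fold change 0.59, SE 0.09, edgeR adjusted p = 1.5e-04). Under iAs it averaged 266 ± 35.9 CPM in mutants and 588 ± 21.4 CPM in wild type, a 2.21-fold lower level (-1.14, SE 0.08, edgeR adjusted p = 5.4e-09). Its response to iAs was thus smaller in the mutant (interaction -1.74, SE 0.12, edgeR adjusted p = 2.0e-08). Among all tested genes, 1.85% had a lower interaction value than gsto2.

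For gsto1 the genotypes were closer. Without iAs it averaged 9.80 ± 1.78 CPM in mutants and 7.43 ± 0.875 CPM in wild type (SD, n = 3 each), with the lowest mutant library at 8.04 CPM and the highest wild-type library at 8.07 CPM. This 1.32-fold difference passed the threshold narrowly (0.40, SE 0.13, edgeR adjusted p = 0.0404). The call was lost without replicate 1 of the untreated mutant (0.26, edgeR adjusted p = 0.225) or replicate 1 of the untreated wild type (0.31, edgeR adjusted p = 0.184). It was also lost without replicate 3 of the untreated mutant, replicate 2 or 3 of the untreated wild type, or any treated wild-type library, with edgeR adjusted p from 0.0503 to 0.0779. Under iAs gsto1 averaged 56.9 ± 6.97 CPM in mutants and 66.9 ± 0.533 CPM in wild type, which did not pass (-0.23, 95% interval -0.45 to -0.02, edgeR adjusted p = 0.0678). It did pass without replicate 1 of the treated mutant (-0.32, edgeR adjusted p = 0.023) or replicate 1 or 2 of the untreated mutant (-0.23 each). The response to iAs was smaller in the mutant for gsto1 as well (interaction -0.64, SE 0.16, edgeR adjusted p = 0.00641).

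Treated mutants against untreated wild type, which differ in both genotype and dose, gave calls for all 3 genes, as for 66.1% of all tested genes. The log2 fold changes were -2.29 for as3mt, 2.94 for gsto1 and 3.14 for gsto2. All 3 genes were called between untreated genotypes, where 13.5% of all tested genes were called, and 2 of 3, as3mt and gsto2, between genotypes under iAs, where 50.4% were. Of the calls without iAs, that of gsto1 was narrow and was lost in 8 of 12 fits with 1 library left out. The gene edited in the mutant is as3mt itself. The interaction was called and negative for all 3, against 30.2% of tested genes called and 17.9% called with a negative value. Of the interaction calls, 40.7% were positive in the main fit, 29.3% with library size alone and 46.1% with DESeq2 size factors.

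The ratio of gsto2 to gsto1 counts in a library shows whether these neighbours changed by the same factor, since scaling between libraries cancels in it. It depends on the lengths of both transcripts, so it is compared between groups and does not say which gene is more abundant. The ratio was 4.57, 4.54 and 4.91 in treated mutants, against 3.54, 5.97 and 4.85 in untreated mutants. In wild type it was 8.74, 9.07 and 8.55 with iAs, against 4.54, 3.94 and 3.77 without it. The treated wild-type libraries stood apart from the other 9, which ran from 3.54 to 5.97.

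**Figure D3:**
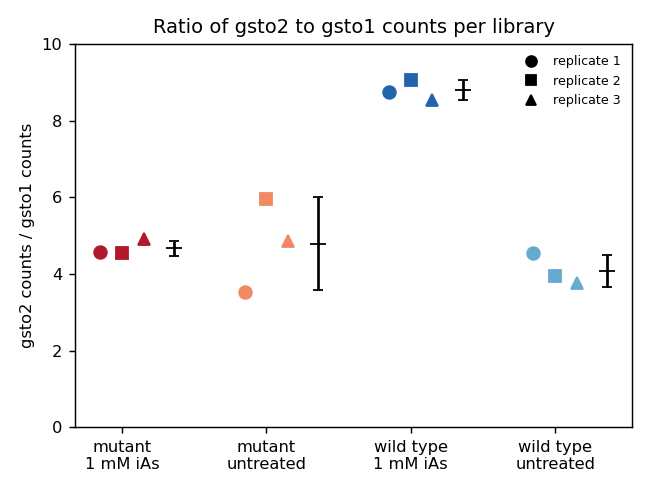
Counts of gsto2 divided by counts of gsto1 in each of the 12 libraries on a linear axis from 0; symbols are replicates and the bar beside them is the mean with SD (n = 3). The treated wild-type libraries lie at 8.55 to 9.07 and the other groups between 3.54 and 5.97.

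In wild type the mean ratio was 8.79 ± 0.261 with iAs and 4.08 ± 0.406 without it (SD, n = 3 each). In the mutant the means were 4.67 ± 0.203 with iAs and 4.79 ± 1.21 without it. With the libraries averaged on the log scale, the ratio with iAs was 2.16 times that without it in wild type and 0.998 times in the mutant. Each of these tests of 3 libraries against 3 can reach no p below 0.1 in an exact two-sided permutation test, and they gave 0.1 in wild type and 1 in the mutant. Over both genotypes together, with labels exchanged within genotype, the log2 ratio was higher by 0.55 with iAs (exact permutation test, two-sided, p = 0.055, where 0.005 is the smallest p this test allows). Without replicate 2 of the untreated mutant the difference was 0.64 (exact permutation p = 0.02), and without replicate 1 or 2 of the treated mutant 0.56 (exact permutation p = 0.045). Mutants were lower than wild type by a log2 difference of -0.36 over both doses (exact permutation test, p = 0.115), with differences of -0.91 under iAs (p = 0.1) and 0.20 without it (p = 0.5, both exact). The genotype difference itself differed between doses by -1.11 (exact permutation of genotype within dose, p = 0.025). That test takes as its null that genotype does not matter at either dose. After Benjamini-Hochberg adjustment over these 7 tests of the ratio, the lowest adjusted value was 0.161, so none passed. The tests of 3 libraries against 3 could not have passed, since 0.1 is their smallest p, so they decide nothing. Under iAs the ratios of the genotypes did not overlap, at 8.55 to 9.07 in wild type and 4.54 to 4.91 in mutants. The edgeR log2 rise with iAs in wild type was 4.29 (SE 0.09) for gsto2 and 3.17 (SE 0.12) for gsto1. In the mutant it was 2.55 (SE 0.09) for gsto2 and 2.53 (SE 0.12) for gsto1. How reads that match both genes were assigned is unknown here, so levels of these paralogs carry that uncertainty.

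Genes with a pattern like each member were sought by Pearson's r of log2 CPM over the 12 libraries, among 13478 other named genes with a mean of at least 5 CPM. These values are a description, since all genes share the same 4 groups and many follow them closely. The pattern of as3mt was nearest to PCDH8, a protocadherin, the C-reactive protein gene crp5 and PANK1, a kinase of coenzyme A synthesis (r = 0.995 each). Next came snap91b, a gene of synaptic vesicle recycling (0.992), and the granin gene chgb (0.991). As genes chosen for this likeness, all 5 had the same order of extremes. For crp5 the levels were 0.0393 CPM in treated mutants, 3.96 in untreated mutants, 5.90 in treated wild type and 41.1 in untreated wild type. The genes most opposite to as3mt were CDON, TLK2 and the lipoate synthase gene LIAS (r from -0.989 to -0.988).

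Among the genes with patterns nearest to gsto1 were the thioredoxin gene txnb (r = 0.993), the cotransporter slc12a7a (0.993), the ubiquitin-activating enzyme uba1 (0.991) and glutathione synthetase GSS (0.991). The size of the changes in these genes differed widely, as txnb was 25.4-fold higher with iAs in the mutant and 35.6-fold in wild type, while uba1 was 1.63-fold and 1.73-fold higher. For gsto2 the nearest were mgst3b, a microsomal glutathione transferase (0.995), SELENBP1, a selenium-binding protein (0.995), the paraoxonase pon1 (0.994), GCLC, the catalytic subunit of the first enzyme of glutathione synthesis (0.994), and biliverdin reductase blvrb (0.991). As genes chosen for their likeness to gsto2, these 5 shared its smaller fold change in the mutant. They ran from mgst3b at 3.18-fold against 5.34-fold in wild type to SELENBP1 at 1.98-fold against 2.91-fold. The creatine synthesis enzyme GAMT was among the 3 genes most opposite to gsto1 (-0.987) and to gsto2 (-0.980). The r between gsto1 and gsto2 was 0.979, which left 103 genes nearer to gsto1 than gsto2 was, and 60 genes nearer to gsto2 than gsto1 was. The r of as3mt was -0.653 with gsto1 and -0.530 with gsto2.

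The wider pathway was taken in 4 lists. The first covers the making and use of SAM, the methyl donor of arsenite methyltransferase. Of its 37 tested genes, 20 fell and 11 rose with iAs in the mutant, with a median log2 fold change of -0.44, and 13 fell and 12 rose in wild type, with a median of -0.06. Over all tested genes 32.6% fell and 31.1% rose in the mutant, and 22.2% fell and 22.6% rose in wild type. Under iAs, 24 were lower and 4 higher in the mutant than in wild type (median -0.38, against -0.04 over all tested genes, of which 27.9% were lower and 22.5% higher). Without iAs, 9 were lower and 6 higher (median -0.06, against 0.00, with 6.82% lower and 6.64% higher over all tested genes). The interaction was negative for 17 and positive for 4 (17.9% negative and 12.3% positive over all tested genes), and methionine synthase MTR and the mitochondrial serine hydroxymethyltransferase SHMT2 were among those with the largest values, at -1.20 and -1.18.

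The largest rises in the SAM list with iAs were in tpmt.1 and tpmt.2. The thiol methyltransferase gene tpmt.1 was at 59.0 CPM in treated and 7.33 in untreated mutants, and at 99.6 in treated and 7.64 in untreated wild type. Its neighbour in name tpmt.2 was at 16.6 and 2.89 CPM in treated and untreated mutants and at 44.2 and 2.82 CPM in treated and untreated wild type. Like gsto2, both responded less in the mutant, with interactions of -0.70 for tpmt.1 (edgeR adjusted p = 8.0e-05) and -1.47 for tpmt.2 (edgeR adjusted p = 1.5e-04). One SAM synthetase gene, MAT2A (ENSDARG00000037121), had its groups in the same order as as3mt. It was at 10.3 CPM in treated mutants, 31.5 in untreated mutants, 37.1 in treated wild type and 82.5 in untreated wild type. Its genotype difference was -1.85 under iAs (edgeR adjusted p = 8.3e-11) and -1.39 without it (edgeR adjusted p = 8.5e-09). The other MAT2A ID (ENSDARG00000040334) was more abundant, at 182 CPM in treated and 267 in untreated mutants. In wild type it was at 252 CPM with iAs and 314 without. As for as3mt, treated mutants were lowest and untreated wild type highest at this ID too. Its genotype differences were smaller, at -0.47 under iAs (edgeR adjusted p = 1.2e-06) and -0.23 without it (edgeR adjusted p = 0.006).

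The second list holds genes for the reduction of arsenic, the supply of thiols to the omega-class transferases and the breakdown of glutathione. Of its 25 tested genes, 13 rose and 6 fell with iAs in either genotype, with a median of 0.32 in the mutant and 0.22 in wild type. Over all tested genes 31.1% rose and 32.6% fell in the mutant, and 22.6% rose and 22.2% fell in wild type, so the falls were near or below the general share. Glutathione reductase GSR, which regenerates glutathione, was 7.26-fold higher in the mutant and 8.71-fold higher in wild type. Glutathione synthetase GSS rose 4.12-fold and 5.68-fold, GCLC 2.85-fold and 4.57-fold, and GCLM, the modifier subunit of the same enzyme, 3.99-fold and 4.53-fold, in the mutant and in wild type. Among the genes that fell was the purine nucleoside phosphorylase gene pnp4b, 3.01-fold lower in the mutant and 3.89-fold lower in wild type. Its relative pnp4a fell 3.18-fold in the mutant and 1.57-fold in wild type. Under iAs 10 genes were lower and 5 higher in the mutant than in wild type (27.9% lower and 22.5% higher over all tested genes), including GGCT, a gene of glutathione breakdown, at 53.0 against 23.1 CPM, and the purine nucleoside phosphorylase gene pnp6 at 9.72 against 19.1 CPM. Human purine nucleoside phosphorylase can reduce arsenate. Without iAs 4 were lower and 2 higher (6.82% and 6.64% over all tested genes), among them thioredoxin TXN at 89.0 CPM in mutants and 125 CPM in wild type (edgeR adjusted p = 2.2e-04). The interaction was called for 8 of the 25, of which 5 were negative, with GCLC at -0.68. That count is near the general share, as 30.2% of all tested genes were called and 17.9% were negative.

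**Figure D4:**
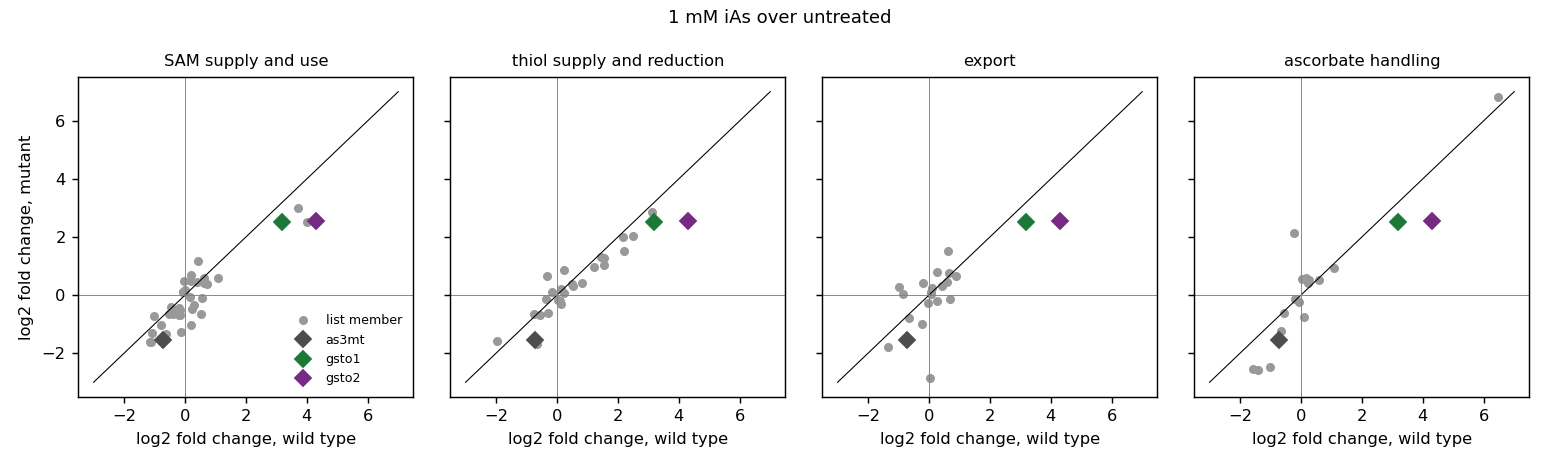
Log2 fold change with iAs in the mutant (y axis) against that in wild type (x axis) for each tested gene of 4 lists (grey points), with as3mt, gsto1 and gsto2 drawn in every panel as diamonds and the line of equal response in black. At -1.54, 2.53 and 2.55 in the mutant, against -0.71, 3.17 and 4.29 in wild type, as3mt, gsto1 and gsto2 lie below the line.

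Of 19 tested genes for export of arsenic, glutathione conjugates and other compounds, 7 rose and 5 fell with iAs in the mutant and 8 rose and 5 fell in wild type. In the mutant these counts are near the general shares of 31.1% higher and 32.6% lower, and in wild type the shares were 22.6% higher and 22.2% lower. The conjugate exporter abcc2, known in mammals to carry arsenic with glutathione into bile, was at 664 CPM in treated and 421 in untreated mutants, and at 836 in treated and 454 in untreated wild type. The transporter ABCB4 fell 3.40-fold in the mutant and 2.55-fold in wild type. Between genotypes, 8 were lower and 4 higher in mutants under iAs (27.9% and 22.5% over all tested genes), and 4 were lower and 1 higher without it (6.82% and 6.64%). The interaction was called for 9 of them, 4 positive and 5 negative, against 12.3% positive and 17.9% negative over all tested genes. One of these, slc22a5, was below 1 CPM in every group.

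The last list concerns the handling of ascorbate and of dehydroascorbate, which human omega-class transferases also reduce. Of 16 tested genes, 8 rose and 7 fell in the mutant and 4 rose and 5 fell in wild type with iAs. Over all tested genes 31.1% rose and 32.6% fell in the mutant, and 22.6% rose and 22.2% fell in wild type, which the wild-type counts are near. The ascorbate transporter SLC23A1 was at 4.38 CPM in treated and 26.3 in untreated mutants, and at 11.9 in treated and 31.7 in untreated wild type. The cytochrome b561 family gene CYB561A3 (ENSDARG00000028257) was at 15.4 CPM in treated and 0.134 in untreated mutants, and at 21.5 in treated and 0.238 in untreated wild type. The other CYB561A3 ID (ENSDARG00000056281) did not rise. It fell in the mutant, to 2.65 CPM in treated from 4.44 in untreated larvae (edgeR adjusted p = 3.4e-04). In wild type it was at 4.88 CPM with iAs and 4.56 without (edgeR adjusted p = 0.605). Under iAs 7 genes were lower and 4 higher in the mutant (27.9% and 22.5% over all tested genes). The glucose transporter gene SLC2A1 (ENSDARG00000001437) was lower, at 4.59 against 18.9 CPM. The other SLC2A1 ID (ENSDARG00000007412) was higher, at 72.5 against 54.4 CPM (edgeR adjusted p = 7.4e-04). Another glucose transporter gene, slc2a3b, was also higher, at 19.0 against 3.82 CPM. Without iAs 2 were called, near the 13.5% called over all tested genes. Both were lower in the mutant, and SLC2A1 (ENSDARG00000001437) was among them at 25.7 CPM in mutants and 38.5 CPM in wild type. The other SLC2A1 ID was not called, at 50.6 CPM in mutants and 45.2 CPM in wild type.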

How the data were processed

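Raw read counts per Ensembl gene were deposited by the authors, with 1 file for each of the 12 libraries. The submitters' processing notes name FastQC 0.11.5, Trimmomatic 0.36 and the build GRCz10. Which aligner and counter were used, and whether strand was, is not given in the sources used here. Groups came from the sample titles. The titles end in cl and a number, which the labels do not explain. Nothing says that libraries came from different clutches, so p-values rest on the spread of these samples alone, and some of it may be technical.

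Counts were filtered with filterByExpr (minimum count 10), scaled by TMM and fitted with edgeR 4.0.16 (glmQLFit, glmQLFTest) in R 4.3.3 over all 12 libraries. P-values were adjusted by Benjamini-Hochberg over 23096 genes, and a gene was called below 0.05. The common biological coefficient of variation was 9.00%. The fit was tested on simulated counts with far fewer changed genes than were called here, raised and lowered in equal number. That test does not bear on the scaling. Ratios were compared by exact permutation in Python 3.11.15 with numpy 2.4.6.

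Gene symbols were looked up by Ensembl ID, which named 26269 of 32105 genes and gave many of them human-style names. List entries with no exact match were looked up without their paralog letter, and every ID of a shared symbol was kept. The members and lists were chosen with earlier results of these data known. Text names the 3 members, up to 3 called genes per list and comparison with the largest change, the 5 most alike and 3 most opposite genes per member, and 5 neighbours a side; 1 of the genes most alike to gsto1 is not reported here. GCLC, GCLM, TXN, abcc2, SLC2A1, pnp4a, pnp4b and apoa1a meet the rule in some comparisons and are also given in others. The other ID of MAT2A, CYB561A3 and SLC2A1 is given as well, whether or not it met the rule. FGG did not meet the rule and is given as a hepatocyte gene that rose. No coordinates are printed, since the annotation at hand (GRCz12tu) is of another build than the counts.

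No libraries of a group were identical, and their counts differed beyond sampling noise, with a chi-square of 5.18 to 21.5 for each degree of freedom. Alternatives were DESeq2 1.42.0, other scaling, other filters, fewer groups in the fit, the replicate number as a block and each library left out. The tests of the gsto ratio within 1 genotype or 1 dose, and of its difference between doses, were added after seeing the data.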

Additional observations from a re-analysis of the deposited data

Results flagged for a closer look

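The response to iAs differed between mutant and wild type for all 3 genes by the interaction term of the edgeR fit. The log2 difference, mutant minus wild type, was -0.83 for as3mt, -0.64 for gsto1 and -1.74 for gsto2. For as3mt this was a deeper fall in the mutant, and for the gsto genes a smaller rise. The groups of 3 libraries are too small for a test of single outlying libraries.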

How the results depend on the processing

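Over 21 results for the 3 genes and 396 alternatives, 382 kept the direction and the side of the threshold, and the 14 others all concerned gsto1 between genotypes. For gsto1 under iAs, mutant minus wild type passed at -0.29 (library size alone) and -0.24 (no filter on low counts), and ran from -0.32 to -0.12 with each library left out. For gsto1 without iAs the call was lost at 0.40 when only the groups compared were fitted (edgeR adjusted p = 0.0593), with values from 0.26 to 0.53 and adjusted p from 0.011 to 0.225 with each library left out. For the log2 ratio of gsto2 to gsto1, the difference of iAs minus untreated ran from 0.45 to 0.64 with a library left out (exact permutation p from 0.02 to 0.095). The cause was not tested. The counts of called genes stayed within 1.5 times the main count in all 94 alternatives. With the replicate block the interactions were -0.83 for as3mt, -0.63 for gsto1 and -1.74 for gsto2, and no call changed. Same-numbered libraries correlated at -0.03 to 0.07 in their deviations from group means, so the numbers were not taken to pair them, and 12 of 36 best matches had the same number. In pairs by number, the log2 ratio differed by 0.55 with iAs (exact p = 0.156) and by -0.36 between genotypes (exact p = 0.281). Depth limits as3mt most, at 112 to 117 reads in treated mutants.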
